A study of Homo sapiens with 18 samples.

Results

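The comparison asked how far the response to a single short hairpin RNA, shAhR-1, differed between 2 human neuroblastoma lines. It was the BE2C response (shAhR-1 minus the pLKO-GFP vector control) less the Kelly response (shAhR-1 minus the same control), a line by hairpin interaction, taken over all genes after joining the count tables of both lines by gene symbol. The comparison used 12 of the 18 libraries of the series, 3 in each of 4 groups, and left out the 6 libraries of another hairpin. BE2C and Kelly are established lines that carry an amplified MYCN oncogene. The control groups hold the lentiviral vector pLKO-GFP and the treated groups the vector with shAhR-1, a hairpin named for AHR, so every group carries a lentiviral vector. No time after infection is given in the sources used here. RNA was total RNA from which ribosomal RNA had been removed. Whether a group's 3 libraries are separate cultures or repeats of one is not in the labels. The p-values therefore rest on library-to-library spread alone, and that spread may be technical.

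AHR encodes the aryl hydrocarbon receptor, a transcription factor that waits in the cytosol with HSP90 chaperones, moves to the nucleus when a ligand binds, and pairs with ARNT to bind xenobiotic response elements at genes such as CYP1A1. Neuroblastoma arises from sympathoadrenal precursors, and its lines keep part of a noradrenergic programme, with a core of transcription factors (such as HAND2 and GATA3) and the enzymes that make noradrenaline. MYCN drives growth, ribosome production and the cell cycle in these cells. A response to 1 hairpin can be shared, of unequal size, or opposite in lines that start from different expression states.

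Levels are given by library as CPM, counts scaled to the TMM-adjusted library size. Responses are log2 fold changes against the control of the same line, ± SE, from edgeR's quasi-likelihood test over the 12 libraries, with Benjamini-Hochberg adjustment over 16239 tested genes and calls at an adjusted p below 0.05. An interaction above 0 means that the BE2C response was the more positive, and one below 0 that the Kelly response was. Libraries held 32799682 to 45469353 counts. The first principal component of log-CPM separated the lines (83.5% of variance). The second (7.11%) separated shAhR-1 from control in the same direction in both lines, and the third (2.50%) separated them in opposite directions. No library stood apart from its group on these components. The fourth (1.02%) spread the BE2C controls, with replicates 1, 2 and 3 at 31.55, −26.4 and −4.51. The mitochondrial share of counts rose with shAhR-1, from 19.1% ± 0.303 to 24.5% ± 0.367 in BE2C and from 15.2% ± 0.616 to 17.5% ± 0.139 in Kelly (SD, n = 3). Its part in the results was not tested beyond a fit without mitochondrial genes, which changed no count below by more than 1.5 times.

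AHR itself was hardly detected. The BE2C controls held 4, 4 and 6 counts and the BE2C shAhR-1 libraries 8, 0 and 0, while the Kelly controls held 4, 26 and 29 and the Kelly libraries labelled shAhR-1 18, 11 and 22. The groups overlapped in both lines. Pooled over libraries, the ratio of shAhR-1 to control was 0.584 in BE2C (exact 95% interval 0.212 to 1.49) and 0.998 in Kelly (0.672 to 1.48). Without the BE2C shAhR-1 library of 8 counts the BE2C ratio was 0, with an upper limit of 0.477, and edgeR called the fall (adjusted p = 0.0223). Without the Kelly control of 4 counts the Kelly ratio was 0.681, and without the Kelly control of 29 counts it was 1.36. By an exact permutation test on the CPM values (2-sided), p was 0.4 in BE2C and 1 in Kelly, where 3 libraries against 3 cannot go below 0.1. The AHR interaction was −0.69 ± 1.1 (edgeR adjusted p = 0.682). AHR (chromosome 7, 16916359 to 17346152, plus strand, GRCh38, GENCODE release 29) was thus not shown to fall over all 3 libraries of either line, with a BE2C call that rested on leaving out 1 library, and every Kelly direction below is a difference of the libraries labelled shAhR-1 from their controls. These intervals cover counting error only.

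With shAhR-1, most genes called in both lines moved in the same direction, and 37.3% of all tested genes responded by a different amount in the 2 lines. In BE2C 8389 genes were called, 51.7% of those tested (4028 rose and 4361 fell), and in Kelly 9218, or 56.8% (4438 rose and 4780 fell). Of the 6054 genes called in both lines, 5232 moved in the same direction (2344 higher and 2888 lower). They were 32.2% of genes tested, 62.4% of the BE2C calls and 56.8% of the Kelly calls. The interaction was called for 6057 genes (2945 above 0 and 3112 below), of which 929 differed by at least 1 on the log2 scale. The balance of directions depended on the low-count filter. When genes needed a mean of 1 CPM, 4566 rose and 3576 fell in BE2C, and same-sign genes were 2747 higher and 2494 lower. The interaction was then above 0 for 3329 and below 0 for 2647, and without BE2C shAhR-1 replicate 1 for 3081 and 2577. Across the 12018 genes with a mean of at least 1 CPM in some group of each line, the 2 sets of fold changes correlated at Pearson's r = 0.607 and Spearman's rho = 0.600. That figure is a description over genes, which are not independent, and the lines share no library. Among genes called and changed at least 2-fold in both lines, 399 of 423 (94.3%) had the same sign.

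**Figure D1:**
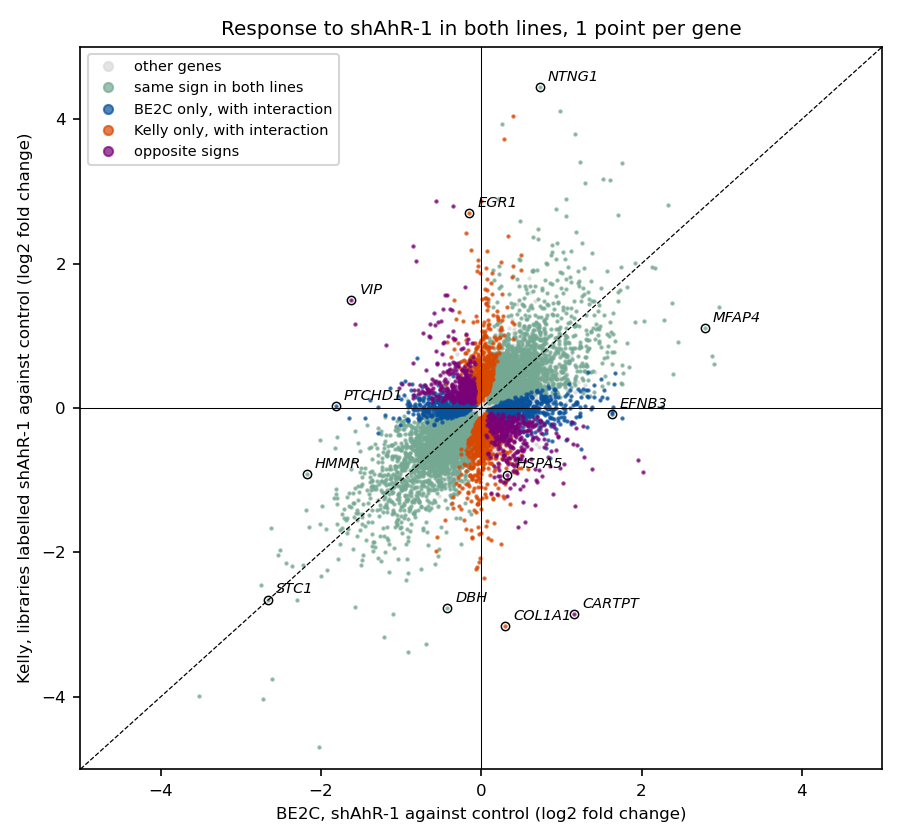
Log2 fold change with shAhR-1 against the vector control in BE2C (x axis) and in Kelly (y axis), 1 point for each of 12018 genes measurable in both lines, coloured by response class, with the dashed line at equal responses. Same-sign genes fill the lower left and upper right, and the labelled genes CARTPT and VIP lie far into the opposite quadrants.

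A total of 822 genes, 5.06% of those tested, moved in opposite directions with an interaction call: 389 rose in BE2C and fell in Kelly, and 433 did the reverse. That split depended on the low-count filter, at 502 and 325 when genes needed a mean of 1 CPM. Most were small, and 61 changed at least 1.5-fold in both lines. Both leading genes encode neuropeptides or their precursors, CARTPT in one direction and VIP in the other. The 12 genes described next were those of at least 5 CPM in some group ranked by the smaller of their 2 absolute fold changes, and with no overlap between shAhR-1 and control libraries in either line. CARTPT, NLGN3 and MEGF6 in BE2C, and VIP in Kelly, reached the 1 CPM minimum only in the group in which they were higher, and SCN1A and INHBA in BE2C only in their controls, so the minimum itself favours a difference there. Without regard to size, such non-overlap held for 56.0% of tested genes in BE2C and 62.0% in Kelly.

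CARTPT (chromosome 5, 71719163 to 71721048, plus strand), the precursor of the CART neuropeptides, stood at 30.3, 33.3 and 29.7 CPM in the Kelly controls and at 4.50, 4.30 and 4.14 in the Kelly libraries labelled shAhR-1. In BE2C it was near the limit of detection, at 0.497, 0.583 and 0.403 CPM in controls and 0.927, 0.696 and 1.69 with shAhR-1. Every shAhR-1 library was below its controls in Kelly and above them in BE2C, which the rule for choosing these genes required. The responses were 1.16 ± 0.26 in BE2C and −2.85 ± 0.12 in Kelly, an interaction of 4.01 ± 0.28 (edgeR adjusted p = 2.08e-16).

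VIP (chromosome 6, 152750798 to 152759765, plus strand), which encodes vasoactive intestinal peptide, mirrored it. VIP was at 75.5, 77.4 and 70.6 CPM in BE2C controls and 23.0, 24.5 and 25.2 with shAhR-1. In Kelly it was at 0.481, 0.521 and 0.586 CPM in controls and 1.42, 1.63 and 1.41 in the libraries labelled shAhR-1. The gene fell where it was abundant and rose where it was scarce, with an interaction of −3.11 ± 0.20 (adjusted p = 1.06e-17). ADCYAP1, the gene of the related peptide PACAP, moved the same way as VIP. Its levels were 5.44, 4.66 and 5.98 against 3.45, 3.08 and 2.63 CPM in BE2C and 1.75, 2.32 and 1.81 against 7.42, 7.87 and 8.91 CPM in Kelly (interaction −2.85 ± 0.22). As for all genes of this group, the rule required the 3 shAhR-1 libraries of each line to lie wholly to 1 side of their controls.

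The sequences just upstream of the start site are shown for both leading neuropeptide genes, because their directions were opposed between the lines. They are the 250 bases before the RefSeq start (GRCh38.p14), 5′ to 3′ on the gene's strand. Any exact match to the full form TGACGTCA of the cyclic AMP response element is in capitals.
CARTPT (chr5:71719025-71719274, plus strand): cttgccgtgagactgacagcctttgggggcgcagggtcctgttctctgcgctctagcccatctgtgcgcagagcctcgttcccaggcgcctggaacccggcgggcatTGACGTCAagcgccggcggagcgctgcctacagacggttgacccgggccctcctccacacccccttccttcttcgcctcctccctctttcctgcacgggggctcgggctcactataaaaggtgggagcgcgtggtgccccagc
VIP (chr6:152750547-152750796, plus strand): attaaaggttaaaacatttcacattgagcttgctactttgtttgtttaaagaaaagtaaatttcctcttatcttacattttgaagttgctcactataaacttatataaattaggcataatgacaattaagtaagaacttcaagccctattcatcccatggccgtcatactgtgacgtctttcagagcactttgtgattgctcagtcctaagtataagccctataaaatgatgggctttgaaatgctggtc
CARTPT held 1 exact match, beginning 143 bases before the start, and VIP no exact match. The VIP sequence holds TGACGTCT, which differs from the motif only in its last letter. Inexact matches were not searched for, so an element in VIP is not excluded. The RefSeq start of CARTPT lies downstream of the GENCODE start given above. Searched on both strands, this motif was found before 2.82% of the 12041 tested genes with a RefSeq promoter, and before 4.35% of the 643 opposite genes so matched. The xenobiotic response element core TNGCGTG was found before 5.95% of tested genes and 5.13% of opposite genes, and the E-box CACGTG before 8.77% and 11.98%. A match is a run of letters and not a shown binding site.

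SCN1A, a voltage-gated sodium channel subunit, was at 1.99, 2.04 and 2.95 CPM in BE2C controls and 0.649, 1.02 and 0.694 with shAhR-1. In Kelly it went from 18.2, 19.6 and 18.4 to 46.3, 42.5 and 37.0 CPM. The sodium channel gene therefore fell in one line and rose in the other (interaction −2.73 ± 0.21, adjusted p = 3.29e-15). KCNH3, a voltage-gated potassium channel gene, did the opposite, rising from 2.91, 2.40 and 2.40 to 4.75, 4.87 and 6.05 CPM in BE2C and falling from 10.3, 9.45 and 9.33 to 5.26, 4.74 and 4.12 in Kelly. Its shAhR-1 levels in the 2 lines came close to each other from opposite starting points.

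ADAMTS9, a secreted metalloprotease gene, was the best measured of the group. It stood at 53.6, 52.8 and 52.4 CPM in BE2C controls, 22.2, 24.6 and 23.2 with shAhR-1, 39.9, 43.5 and 40.9 in Kelly controls and 79.1, 72.7 and 75.7 in the Kelly libraries labelled shAhR-1. No 2 of these groups overlapped, which the rule required only within each line. The responses were −1.18 ± 0.053 and 0.87 ± 0.049 (interaction adjusted p = 9.74e-28). INHBA, which encodes the activin beta-A chain, was at 1.54, 1.12 and 1.24 against 0.788, 0.375 and 0.967 CPM in BE2C and 1.18, 1.16 and 1.17 against 6.03, 4.77 and 5.96 CPM in Kelly. Its BE2C fall (−0.85 ± 0.27) lost its call without BE2C shAhR-1 replicate 2 (−0.52, adjusted p = 0.113), while the interaction of −3.10 ± 0.35 was kept. PLXNA4, a semaphorin co-receptor gene, fell in BE2C from 86.8 ± 7.64 to 55.0 ± 1.79 CPM and rose in Kelly from 14.4 ± 1.96 to 28.7 ± 1.02 CPM (SD, n = 3).

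The remaining 4 opposite genes rose in BE2C and fell in Kelly. NLGN3, a synaptic adhesion gene, had responses of 2.01 ± 0.29 and −0.88 ± 0.16, and MEGF6, a gene of EGF-like repeats, 1.38 ± 0.22 and −0.84 ± 0.12. MELTF, the melanotransferrin gene, had 0.99 ± 0.16 and −0.83 ± 0.14, and the hydrolase gene ABHD14B 0.86 ± 0.12 and −0.80 ± 0.10. For ABHD14B, 18.2% of exonic bases lie in another gene, and the strand setting of the counts is not given, so its counts are uncertain. All 4 were lower in BE2C controls than in Kelly controls.

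**Figure D2:**
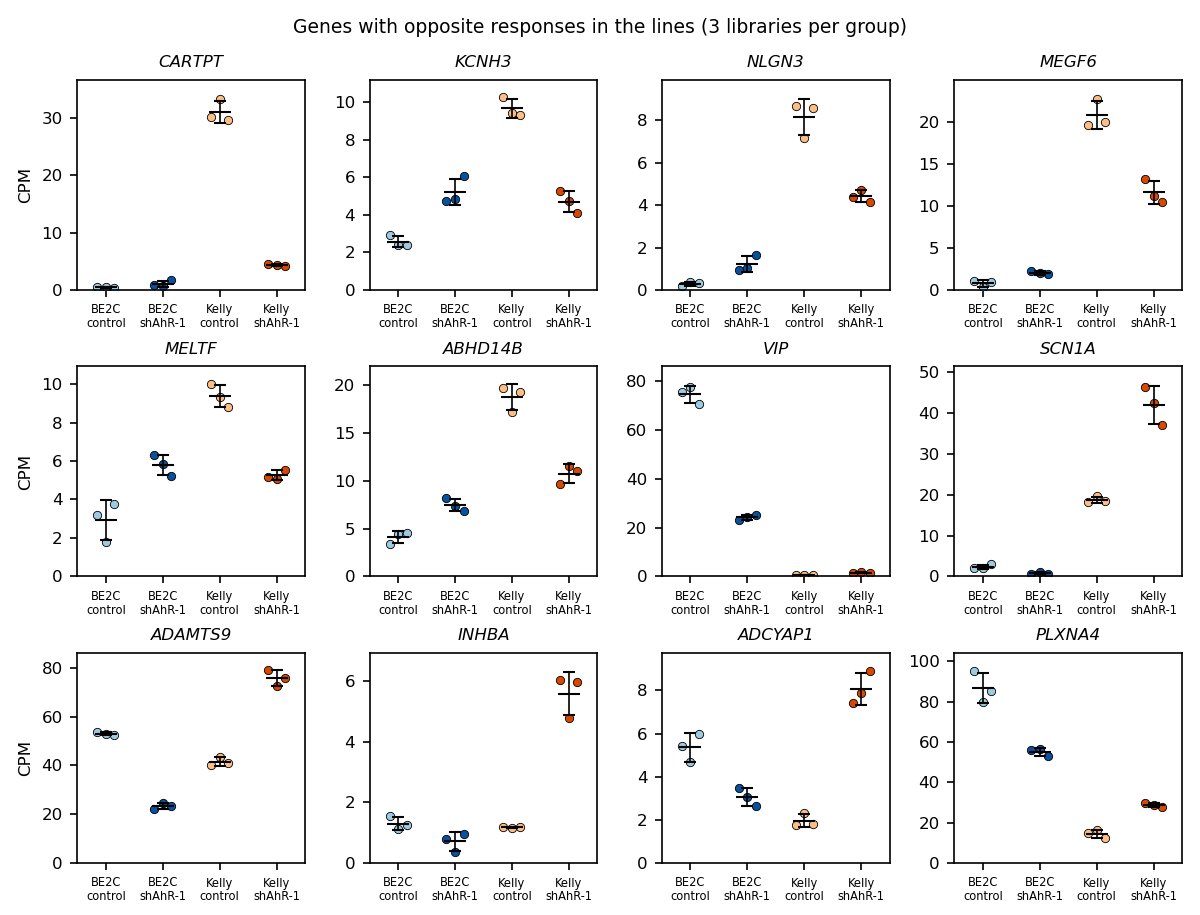
CPM in each library for the 12 leading genes with opposite responses, 3 points per group, with the mean and SD as bars and each vertical axis starting at 0. In the first 6 panels the shAhR-1 libraries lie above their controls in BE2C and below them in Kelly, and in the last 6 the reverse. The rule that chose these genes required this separation.

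Responses called in BE2C but not in Kelly, with an interaction call and a level of at least 1 CPM in both lines, numbered 1149, 7.08% of genes tested (584 rose and 565 fell). With the filter at a mean of 1 CPM they numbered 1177, of which 726 rose and 451 fell. EFNB3, a ligand of Eph receptors, was at 1.39, 1.31 and 1.26 CPM in BE2C controls and 3.87, 4.28 and 4.12 with shAhR-1. In Kelly it was at 21.4, 20.3 and 22.1 and 18.7, 20.3 and 21.02 CPM. The BE2C groups were apart, which the rule for naming genes required of the line called. The Kelly groups overlapped, for an interaction of 1.71 ± 0.16 (adjusted p = 3.65e-12). ULBP1, a ligand of the natural killer cell receptor NKG2D, likewise rose in BE2C from 1.42, 1.70 and 2.90 to 5.87, 6.56 and 6.25 CPM and stood in Kelly at 5.37 ± 0.127 and 5.19 ± 0.975 CPM. ZKSCAN4, a zinc finger gene (1.65 ± 0.13 in BE2C against 0.02 ± 0.11 in Kelly), MFSD3 of the major facilitator family (1.31 ± 0.24 against −0.26 ± 0.16) and the villin-like gene VILL (1.56 ± 0.28 against 0.14 ± 0.14) completed the 5 largest.

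Among genes lowered in BE2C alone by this rule, PTCHD1, a patched-domain membrane protein gene of neurons, led. Its BE2C levels were 2.01, 2.67 and 3.03 CPM in controls and 0.881, 0.642 and 0.645 with shAhR-1, and its Kelly levels 17.1 ± 0.794 and 17.4 ± 0.949 (SD, n = 3). Kelly held several times more PTCHD1 RNA and its groups overlapped (interaction −1.84 ± 0.21, adjusted p = 8.85e-10). In BE2C, PTCHD1 reached the 1 CPM minimum only in the controls, so the minimum itself favours a fall there. CXCL12, a chemokine gene, fell in BE2C from 5.99, 5.54 and 6.10 to 1.97, 2.94 and 2.36 CPM and was at 1.62 ± 0.381 and 1.64 ± 0.266 CPM in Kelly. The adhesion receptor gene ADGRG1 (−1.65 ± 0.25 against −0.14 ± 0.094), the zinc finger gene BNC2 (−1.45 ± 0.17 against −0.14 ± 0.097) and the carbonic anhydrase gene CA12 (−1.04 ± 0.17 against 0.17 ± 0.12) followed. By the rule of this class, the Kelly response was not called for any of these 5.

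Responses called in Kelly but not in BE2C numbered 1493 by the same rule, 9.19% of genes tested (811 rose and 682 fell). With the filter at a mean of 1 CPM they numbered 1483, of which 681 rose and 802 fell. The leading riser was EGR1 (chromosome 5, 138465490 to 138469315, plus strand), an immediate early transcription factor gene. EGR1 was at 2.56, 2.46 and 2.14 CPM in Kelly controls and 14.4, 18.2 and 14.1 in the libraries labelled shAhR-1, against 15.6, 9.32 and 10.9 and 9.83, 12.6 and 9.92 CPM in BE2C. The Kelly controls lay below every other library, and the BE2C groups overlapped. The response was 2.697 ± 0.15 in Kelly and −0.15 ± 0.13 in BE2C (interaction −2.85 ± 0.19, adjusted p = 5.57e-17). Without BE2C control replicate 2 the BE2C value was −0.30 and called (adjusted p = 0.0447), so that EGR1 is then opposite.

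SEMA3D, a secreted semaphorin that steers growing axons, was at 7.75, 7.82 and 6.73 CPM in Kelly controls and 33.9, 31.2 and 36.2 in the libraries labelled shAhR-1. In BE2C it stayed at 10.98, 13.1 and 12.3 CPM in controls and 13.3, 11.9 and 13.0 with shAhR-1, and the BE2C groups overlapped. Its upstream sequence is shown because it was the only 1 of the named genes of this class with a RefSeq promoter in which the search found the receptor's element TNGCGTG on either strand, here in capitals (RefSeq, GRCh38.p14).
SEMA3D (chr7:85187057-85187306, minus strand): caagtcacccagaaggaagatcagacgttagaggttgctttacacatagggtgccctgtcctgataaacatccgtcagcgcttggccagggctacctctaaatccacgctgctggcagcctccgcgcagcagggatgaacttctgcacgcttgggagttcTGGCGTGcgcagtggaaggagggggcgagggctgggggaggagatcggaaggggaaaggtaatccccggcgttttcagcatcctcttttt
The match lay 90 bases before the start. As 5.95% of tested genes hold one, it is a description only. ID4, an inhibitor of basic helix-loop-helix factors (2.19 ± 0.15 in Kelly against −0.12 ± 0.22 in BE2C), and the cadherin family genes PCDH7 (2.05 ± 0.093 against −0.04 ± 0.086) and FAT4 (1.97 ± 0.091 against −0.04 ± 0.080) completed the risers.

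The strongest fall in Kelly alone was that of COL1A1 (chromosome 17, 50183289 to 50201632, minus strand), a chain of type I collagen. COL1A1 was at 10.4, 10.3 and 9.20 CPM in Kelly controls and 1.25, 1.84 and 0.623 in the libraries labelled shAhR-1. In BE2C the levels were 1.71, 1.58 and 1.13 and 1.65, 1.26 and 2.53 CPM, which overlapped. The interaction was 3.32 ± 0.32 (adjusted p = 5.2e-12). HTR3A, a serotonin-gated channel subunit gene, fell in Kelly from 40.2, 39.0 and 41.1 to 9.62, 13.2 and 11.1 CPM and was near 1 CPM in BE2C, at 1.13 ± 0.244 and 1.24 ± 0.319. ENG, the endoglin co-receptor of TGF-beta ligands, fell in Kelly from 3.88 ± 0.171 to 0.827 ± 0.390 CPM and stood at 66.5 ± 2.11 and 64.4 ± 1.03 CPM in BE2C, where it was far more abundant. In Kelly, ENG reached the 1 CPM minimum only in the controls, so the minimum itself favours a fall there. TMEM204 (−2.35 ± 0.33 against 0.04 ± 0.15) and the potassium channel gene KCND1 (−1.88 ± 0.13 against 0.25 ± 0.12) were the other two. The BE2C value of KCND1 was called with the filter at a mean of 1 CPM (0.31, adjusted p = 0.0266) and without BE2C shAhR-1 replicate 2 (0.36, adjusted p = 0.0199), and KCND1 is then opposite.

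Shared responses were the larger class. Of the 5232 same-sign genes, 3538 measurable in both lines had a 95% interval of the interaction within 0.5 log2 of 0. They are called of like size here, and were 21.8% of genes tested (1455 rose and 2083 fell). That band is wide beside small responses, as fold changes of genes measurable in both lines had SDs of 0.48 in BE2C and 0.55 in Kelly. MT-ND6 fell within it at 0.58 in BE2C and 0.19 in Kelly. The class therefore does not show equal responses, and the interaction was called for 1127 of these genes (6.94% of genes tested). The leading fallers of like size lost most of their RNA in both lines. NRAS (chromosome 1, 114704469 to 114716894, minus strand), a small GTPase gene of the RAS family, was at 275, 282 and 273 CPM in BE2C controls and 54.7, 53.3 and 53.1 with shAhR-1. In Kelly it was at 263, 256 and 266 CPM in controls and 57.0, 58.3 and 57.0 in the libraries labelled shAhR-1. NRAS levels were similar in the 2 lines in both conditions, and the interval of the difference in response was −0.27 to −0.08. KCTD20 fell from 135, 123 and 135 to 27.6, 26.7 and 25.5 CPM in BE2C and from 218, 225 and 214 to 35.0, 34.7 and 34.2 CPM in Kelly.

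The secreted glycoprotein gene STC1, stanniocalcin, had the largest fall of the group, −2.66 ± 0.13 in BE2C and −2.65 ± 0.12 in Kelly, with a difference interval of −0.35 to 0.33. KIAA1191 (−2.23 ± 0.046 and −2.18 ± 0.044), METTL7A (−2.004 ± 0.034 and −2.33 ± 0.045) and the lysosomal protease gene LGMN (−1.79 ± 0.068 and −2.10 ± 0.068) fell alongside. Among the genes named here the interaction was called for KCTD20, NRAS, METTL7A, LGMN and BCL2L11, at 0.36, −0.18, 0.32, 0.30 and −0.29. The call for BCL2L11 was lost without BE2C control replicate 2, BE2C shAhR-1 replicate 2 or 3, or Kelly control replicate 3, and that for LGMN without Kelly shAhR-1 replicate 1 (adjusted p = 0.0521).

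Shared risers were led by the histone gene H2BC21, from 4.67, 5.80 and 4.44 to 15.6, 19.9 and 17.2 CPM in BE2C and from 4.85, 4.41 and 4.92 to 14.5, 13.9 and 16.9 CPM in Kelly. BCL2L11, which encodes the pro-apoptotic protein BIM, rose from 23.4, 25.9 and 22.6 to 59.6, 57.4 and 55.6 CPM in BE2C and from 8.99 ± 1.23 to 26.5 ± 0.938 CPM in Kelly (SD, n = 3). In each line the groups were apart. CASC15, a long noncoding RNA of the neuroblastoma susceptibility region, rose by 1.40 ± 0.060 and 1.49 ± 0.060, and DGKB, a diacylglycerol kinase gene, by 1.71 ± 0.11 and 1.61 ± 0.048. The pseudogenes H2BC20P (1.35 ± 0.084 and 1.52 ± 0.087) and RRN3P1 (1.31 ± 0.15 and 1.29 ± 0.16) share sequence with their parent genes, and H2BC20P also overlaps another gene over 30.9% of its exonic bases, so both are uncertain.

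**Figure D3:**
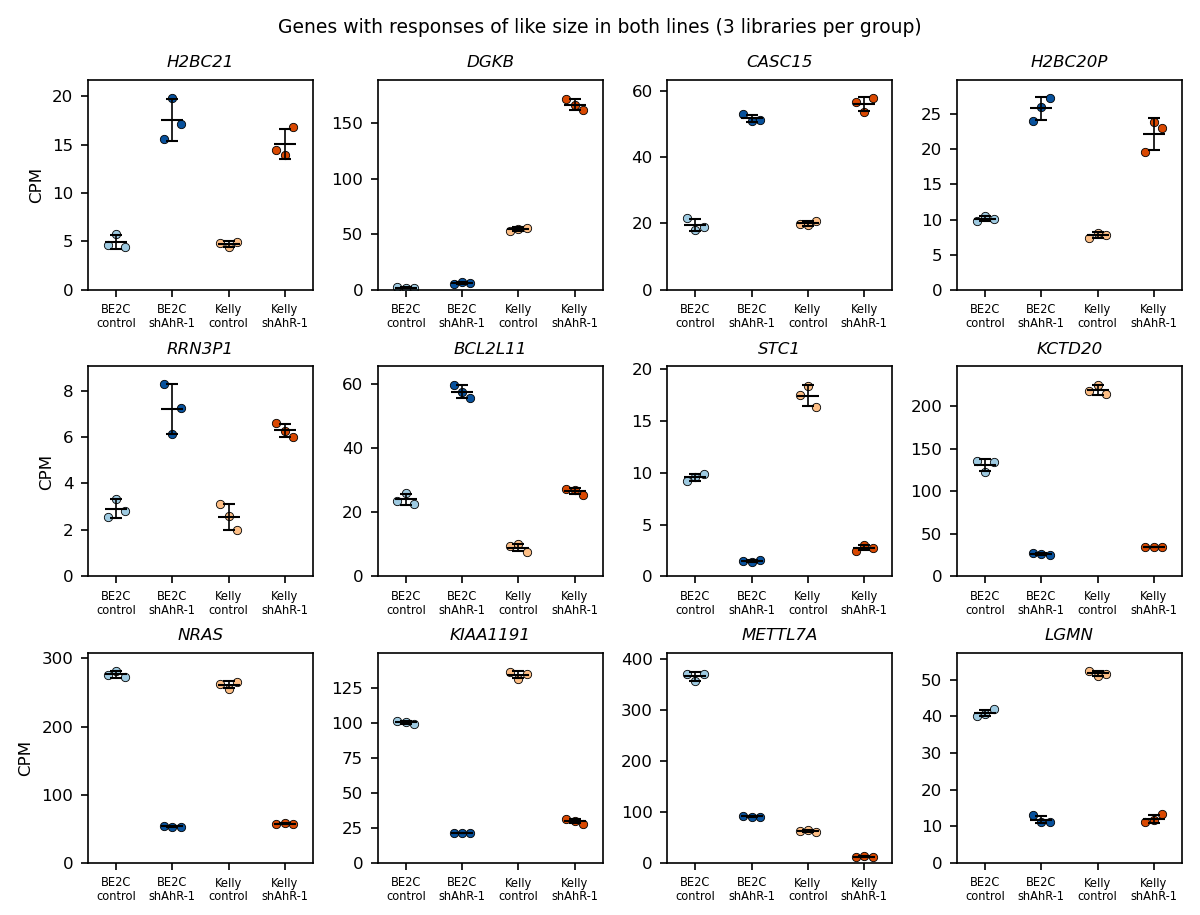
CPM in each library for the 12 leading genes with responses of like size, 3 points per group, with the mean and SD as bars and each vertical axis starting at 0. In the first 6 panels the shAhR-1 libraries lie above their controls in both lines, and in the last 6 below them.

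An interaction call was made for 2158 of the same-sign genes, those 1127 included, which moved one way by unequal amounts. NTNG1, the netrin-G1 gene of axon growth, rose in Kelly from 0.218, 0.237 and 0.255 to 5.46, 5.15 and 5.03 CPM and in BE2C from 7.13, 8.89 and 7.61 to 12.8, 13.6 and 12.8 CPM. All shAhR-1 libraries were above their controls, and the interaction was −3.72 ± 0.25 (adjusted p = 4.44e-17). In Kelly, NTNG1 and PTGER2 (below) reached the 1 CPM minimum only in the libraries labelled shAhR-1, so the minimum itself favours a rise there. CREB5, a cyclic AMP responsive factor gene, rose in Kelly from 1.58 ± 0.144 to 24.1 ± 0.382 CPM, with 0.26 ± 0.088 in BE2C, a BE2C call that was lost without BE2C control replicate 2 (adjusted p = 0.0888). PTGER2, a prostaglandin E2 receptor gene, rose by 2.89 ± 0.19 in Kelly, where it was scarce (0.347 ± 0.0618 CPM in controls), and by 0.21 ± 0.043 in BE2C (110.4 ± 1.795 CPM).

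Risers that were larger in BE2C were the matrix gene MFAP4, from 2.51, 2.23 and 1.64 to 14.7, 15.8 and 13.7 CPM in BE2C against 0.590, 0.521 and 0.765 to 1.33, 1.45 and 1.25 CPM in Kelly, C17orf113 (2.90 ± 0.31 against 0.61 ± 0.17) and the zinc finger gene ZNF619 (2.40 ± 0.26 against 0.48 ± 0.16, the latter call lost without Kelly control replicate 3). In Kelly, MFAP4 reached the 1 CPM minimum only in the libraries labelled shAhR-1, so the minimum itself favours its rise there. Fallers larger in Kelly included SH3TC2 (−4.70 ± 0.26 against −2.02 ± 0.21) and the TGF-beta family receptor gene ACVRL1 (−3.37 ± 0.25 against −0.92 ± 0.18). Fallers larger in BE2C were the glutamate receptor gene GRM8 (−2.01 ± 0.18 against −0.44 ± 0.096), the Notch-responsive gene HEYL (−1.79 ± 0.19 against −0.40 ± 0.096) and the cadherin gene CDH11 (−1.58 ± 0.084 against −0.31 ± 0.045).

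Gene lists of pathways were read by their counts. For all genes tested, 24.8% rose and 26.9% fell in BE2C, 27.3% rose and 29.4% fell in Kelly, and the interaction was above 0 for 18.1% and below 0 for 19.2%, with median log2 fold changes of 0.0034 in BE2C and 0 in Kelly. Tested against a 1.5-fold threshold, the interaction was above 0 for 346 and below 0 for 321 of all 16239 genes. List counts at that threshold are to be read beside these. List members named below beyond the 2 highest and 2 lowest interactions of each list were chosen after their values were seen.

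Cell division genes had the largest median interaction, −0.79, of the lists with 10 or more tested members. Of 35 tested genes of mitosis and the spindle checkpoint, all 35 fell in BE2C, with a median of −0.88 and a range of −2.50 to −0.39. In Kelly 21 fell and 6 rose, with a median of −0.16. The interaction was below 0 for all 35, and these 35 calls were kept under RLE scaling, both other low-count filters, DESeq2, halved counts, the replicate block and the fit without mitochondrial genes. Tested against a 1.5-fold threshold, 22 remained. ANLN, the anillin gene of cytokinesis, fell in BE2C from 283, 279 and 292 to 155, 164 and 159 CPM and rose in Kelly from 161, 152 and 156 to 183, 183 and 189 CPM. HMMR, a spindle protein gene, fell in both, from 71.9, 75.2 and 71.0 to 16.2, 17.3 and 14.7 CPM in BE2C and from 27.9, 30.3 and 29.4 to 13.7, 16.7 and 15.8 CPM in Kelly. The 6 that rose in Kelly were CCNB2 (0.28), KIF23 (0.54), CENPA (0.29), BIRC5 (0.14), ANLN (0.24) and ASPM (0.25). MAD2L1 of the checkpoint and the topoisomerase gene TOP2A fell strongly in both lines (−2.505 ± 0.041 and −1.97 ± 0.041, −1.40 ± 0.028 and −1.19 ± 0.028). In bulk RNA, fewer cells of a kind and less RNA per cell cannot be told apart.

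DNA replication and G1/S genes followed the same order. Of 34 tested, 28 fell and 1 rose in BE2C (median −0.36), while in Kelly 11 fell and 14 rose (median 0.02). The interaction was below 0 for 31 and above 0 for none. Against the 1.5-fold threshold 1 remained, below 0. CCNE1, the cyclin E1 gene that starts S phase, was at 8.32, 9.57 and 6.91 CPM in BE2C controls and 3.99, 4.44 and 3.77 with shAhR-1, against 21.5, 23.3 and 22.6 and 25.8, 27.4 and 28.4 CPM in Kelly. It fell in the first line and rose in the second (interaction −1.30 ± 0.14, adjusted p = 5.24e-11). E2F2 was not called in BE2C (−0.19 ± 0.10) and rose in Kelly (0.58 ± 0.090). The 3 members without an interaction call were GINS1, POLA1 and POLE2, of which GINS1 (−1.19 ± 0.039 and −1.06 ± 0.044) and POLA1 (−1.67 ± 0.048 and −1.52 ± 0.049) fell more than 2-fold in both lines.

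**Figure D4:**
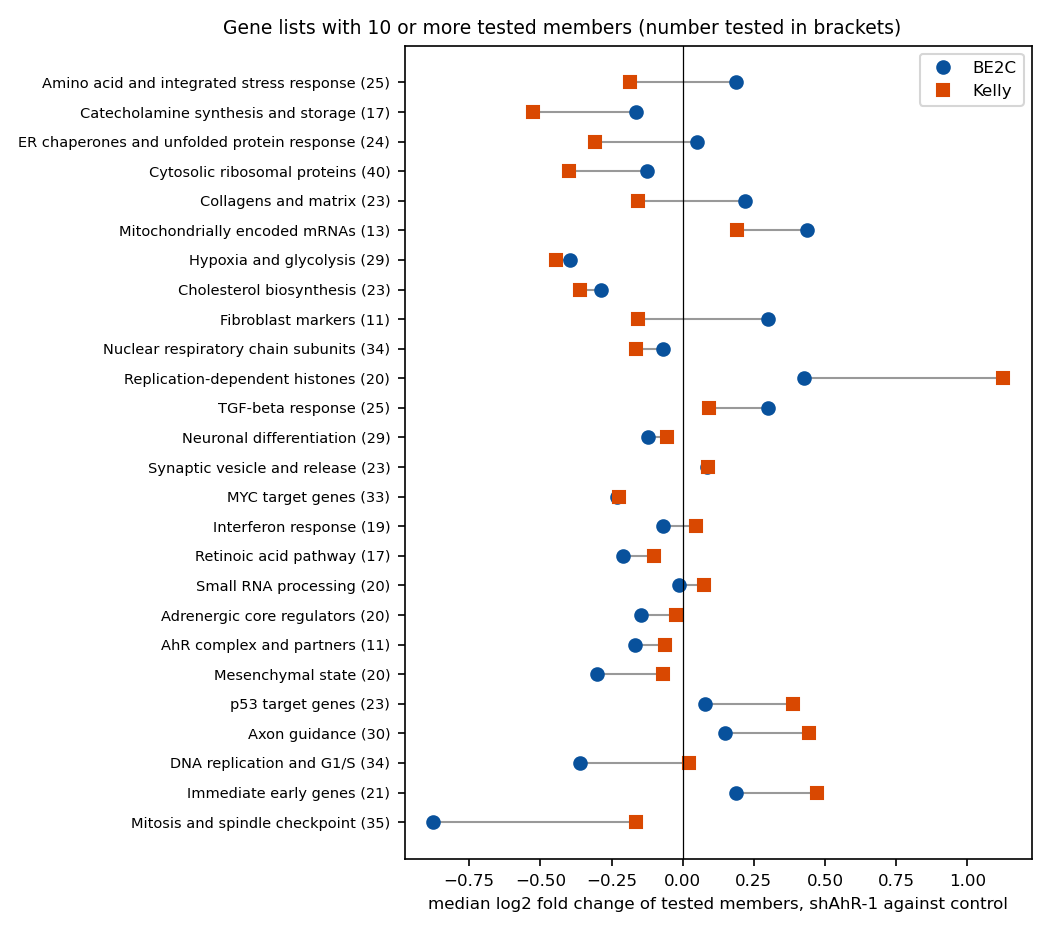
Median log2 fold change with shAhR-1 against control over the tested members of each gene list, in BE2C (circles) and Kelly (squares), for lists with 10 or more tested members, ordered by the median interaction. Mitosis and spindle checkpoint genes lie at the bottom (−0.88 and −0.16), and the amino acid and integrated stress response list lies at the top, on opposite sides of 0.

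The lists of protein folding and the stress response went the other way, with medians below 0 in Kelly and above 0 in BE2C, though not all members followed. Of 24 tested endoplasmic reticulum chaperone and unfolded protein response genes, 19 fell and 1 rose in Kelly (median −0.31), and 7 fell and 9 rose in BE2C (median 0.05). The interaction was above 0 for 16 and below 0 for none. Against the 1.5-fold threshold 4 remained, above 0. HSPA5 (chromosome 9, 125234853 to 125241330, minus strand), the chaperone BiP, was at 711, 691 and 687 CPM in BE2C controls and 874, 898 and 848 with shAhR-1. In Kelly it was at 600.1, 602 and 591 CPM in controls and 309, 317 and 319 in the libraries labelled shAhR-1. It rose in the first line and fell in the second, an interaction of 1.25 ± 0.039 (adjusted p = 7.23e-30). HSP90B1, the chaperone GRP94, moved likewise (0.22 ± 0.026 and −0.86 ± 0.027). XBP1, a transcription factor of the pathway, fell in Kelly (−0.74 ± 0.041) and was not called in BE2C (0.03 ± 0.039). The co-chaperone gene DNAJC3 fell by a like amount in both (−1.48 ± 0.063 and −1.51 ± 0.066).

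In the amino acid and integrated stress response list, which holds ATF4 and many of its targets, 14 of 25 rose and 5 fell in BE2C (median 0.19), and 8 rose and 14 fell in Kelly (median −0.19). The interaction was above 0 for 19 and below 0 for 2. With the 1.5-fold threshold 5 remained, above 0. SLC7A11, the cystine transporter gene, was at 17.4, 16.9 and 15.7 CPM in Kelly controls and 5.32, 4.53 and 4.55 in the libraries labelled shAhR-1, against 18.9, 19.9 and 18.9 and 17.4, 19.3 and 16.4 CPM in BE2C. Only the Kelly groups were apart (interaction 1.68 ± 0.13, adjusted p = 1.86e-15). STC2 rose in BE2C (0.89 ± 0.072) and fell in Kelly (−0.22 ± 0.086), the latter call lost without Kelly control replicate 3 or Kelly shAhR-1 replicate 2. Asparagine synthetase, ASNS, rose in both (1.18 ± 0.15 and 0.45 ± 0.15), and ATF4 rose in BE2C (0.37 ± 0.031) and was not called in Kelly (−0.03 ± 0.030). The 2 members below 0 were ATF3 (−0.52 ± 0.17, lost without BE2C control replicate 1, BE2C shAhR-1 replicate 3 or Kelly shAhR-1 replicate 2) and SLC3A2 (−0.27 ± 0.051).

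Ribosomal protein genes fell in both lines and further in Kelly. Of 40 tested, 33 fell and 2 rose in BE2C (median −0.13), and 37 fell and 1 rose in Kelly (median −0.40). The interaction was above 0 for 32 and below 0 for none. Against the 1.5-fold threshold 0 remained. RPS3 fell from 1411, 1362 and 1359 to 1109.6, 1114 and 1088 CPM in BE2C and from 1587, 1465 and 1548 to 825, 808 and 876 CPM in Kelly, and RPL4 had −0.24 ± 0.026 and −0.79 ± 0.026. The BE2C part was small, and with the filter on mean CPM the number that fell there was 22. Ribosomal protein genes have many processed pseudogenes, so shared reads make single members uncertain. The 13 messenger RNAs of the mitochondrial genome moved oppositely to them, with 13 risers in BE2C (median 0.43) and 11 in Kelly (median 0.19), no fallers, and 11 interactions above 0. Here too 0 interactions remained against the 1.5-fold threshold. MT-ND6 rose by 0.58 ± 0.032 and 0.19 ± 0.032.

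Noradrenaline genes fell furthest in Kelly. DBH (chromosome 9, 133635348 to 133659344, plus strand), which encodes the enzyme that converts dopamine to noradrenaline, was at 1363, 1281 and 1328 CPM in Kelly controls and 197, 196 and 188 in the libraries labelled shAhR-1. In BE2C it was at 550.1, 527 and 499 CPM in controls and 387, 394 and 396 with shAhR-1. The controls differed between the lines in one direction and the treated libraries in the other, and the responses were −2.77 ± 0.032 and −0.42 ± 0.030 (interaction 2.35 ± 0.043, adjusted p = 1.38e-39).

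TH, the rate-limiting enzyme of the pathway, fell from 344, 324 and 349 to 46.2, 50.9 and 43.9 CPM in Kelly and from 114, 108 and 108 to 46.2, 54.2 and 53.9 CPM in BE2C. The controls of the 2 lines were apart, while their shAhR-1 libraries overlapped, between 43.9 and 54.2 CPM. Of 17 tested genes of catecholamine synthesis and storage, 12 fell and 2 rose in Kelly (median −0.53), and 10 fell and 5 rose in BE2C (median −0.17), with 9 interactions above 0 and 3 below. Against a 1.5-fold threshold 5 remained above 0 and 1 below. DDC (−1.52 ± 0.029 in Kelly against −0.27 ± 0.029 in BE2C), the vesicular transporter gene SLC18A2 (−1.24 ± 0.060 against −0.05 ± 0.076, not called) and chromogranin A, CHGA (−1.31 ± 0.027 against −0.20 ± 0.027), had the same order. The granin gene SCG2 rose instead, from 41.0 ± 1.53 to 132 ± 2.98 CPM in Kelly and from 485 ± 7.45 to 574 ± 7.72 CPM in BE2C.

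The transcription factors above these enzymes did not move as a block. MYCN (chromosome 2, 15940564 to 15947007, plus strand) fell from 4777, 4396 and 4735 to 2306, 2356 and 2300.2 CPM in Kelly and from 2279.8, 2215 and 2270.3 to 1881, 1889.8 and 1876 CPM in BE2C. Kelly controls held the most MYCN RNA, and the interaction was 0.74 ± 0.036 (adjusted p = 2.94e-22). HAND2 fell by a like amount in both (−0.23 ± 0.027 and −0.24 ± 0.026, interval of the difference −0.06 to 0.09), with 24.1% of its exonic bases in its antisense gene, and GATA3 was called in neither (0.05 ± 0.030 and 0.03 ± 0.030), though the BE2C value was called in DESeq2 (adjusted p = 0.0382), under RLE scaling (0.0383), with a filter at a mean of 1 CPM (0.11, adjusted p = 0.00108), with no filter (0.0089) and without BE2C shAhR-1 replicate 1, 2 or 3. HAND1 was opposed, from 440.2, 441 and 424 to 356, 363 and 355 CPM in BE2C and from 213, 221 and 211 to 271, 282 and 284 CPM in Kelly. PHOX2A fell in Kelly (−0.69 ± 0.034) and was not called in BE2C (interaction 0.68 ± 0.048, adjusted p = 1.51e-16). SIX3 was opposed (−0.21 ± 0.057 in BE2C, a call lost without BE2C shAhR-1 replicate 1, and 0.53 ± 0.066 in Kelly). Of 20 adrenergic core regulators, 10 fell and 5 rose in BE2C, 7 fell and 6 rose in Kelly, and 7 interactions were above 0 and 8 below.

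Axon guidance and immediate early genes rose more in Kelly. Of 30 tested axon guidance genes, 16 rose and 3 fell in Kelly (median 0.44), and 14 rose and 8 fell in BE2C (median 0.15), with 14 interactions below 0 and 3 above. Against a 1.5-fold threshold 8 remained below 0 and 0 above. SEMA3C rose from 2.84, 2.11 and 2.499 to 22.6, 19.9 and 22.1 CPM in Kelly and from 3.03, 1.70 and 2.34 to 5.31, 6.66 and 5.36 CPM in BE2C. The receptors NRP1 (1.40 ± 0.033 in Kelly against 0.15 ± 0.031 in BE2C), NRP2 (1.35 ± 0.038 against 0.48 ± 0.041) and ROBO1 (1.43 ± 0.037 against 0.63 ± 0.035) rose in both lines and more in Kelly. UNC5A, a netrin receptor gene, was above 0 for the interaction (0.82 ± 0.074 in BE2C against 0.06 ± 0.062 in Kelly), as was SLIT1 (−0.02 ± 0.15 against −0.65 ± 0.096).

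Of 21 tested immediate early genes, which respond within minutes to growth factors or activity, 15 rose and 1 fell in Kelly (median 0.47). In BE2C 6 rose and 5 fell, with a median of 0.19 that was −0.04 when genes needed a mean of 1 CPM. The interaction was below 0 for 9 and above 0 for 2, NR4A1 (0.46 ± 0.11) and KLF10 (0.44 ± 0.082). Against a 1.5-fold threshold 3 remained below 0 and 0 above. JUN was at 27.4, 28.4 and 28.2 CPM in Kelly controls and 86.6, 91.5 and 90.2 in the libraries labelled shAhR-1, against 44.6, 40.2 and 45.6 and 35.6, 38.9 and 38.9 CPM in BE2C. It rose in Kelly and fell a little in BE2C, the latter call lost without BE2C shAhR-1 replicate 1 (−0.12, adjusted p = 0.0942). The interaction of −1.88 ± 0.074 (adjusted p = 4.71e-26) was kept.

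**Figure D5:**
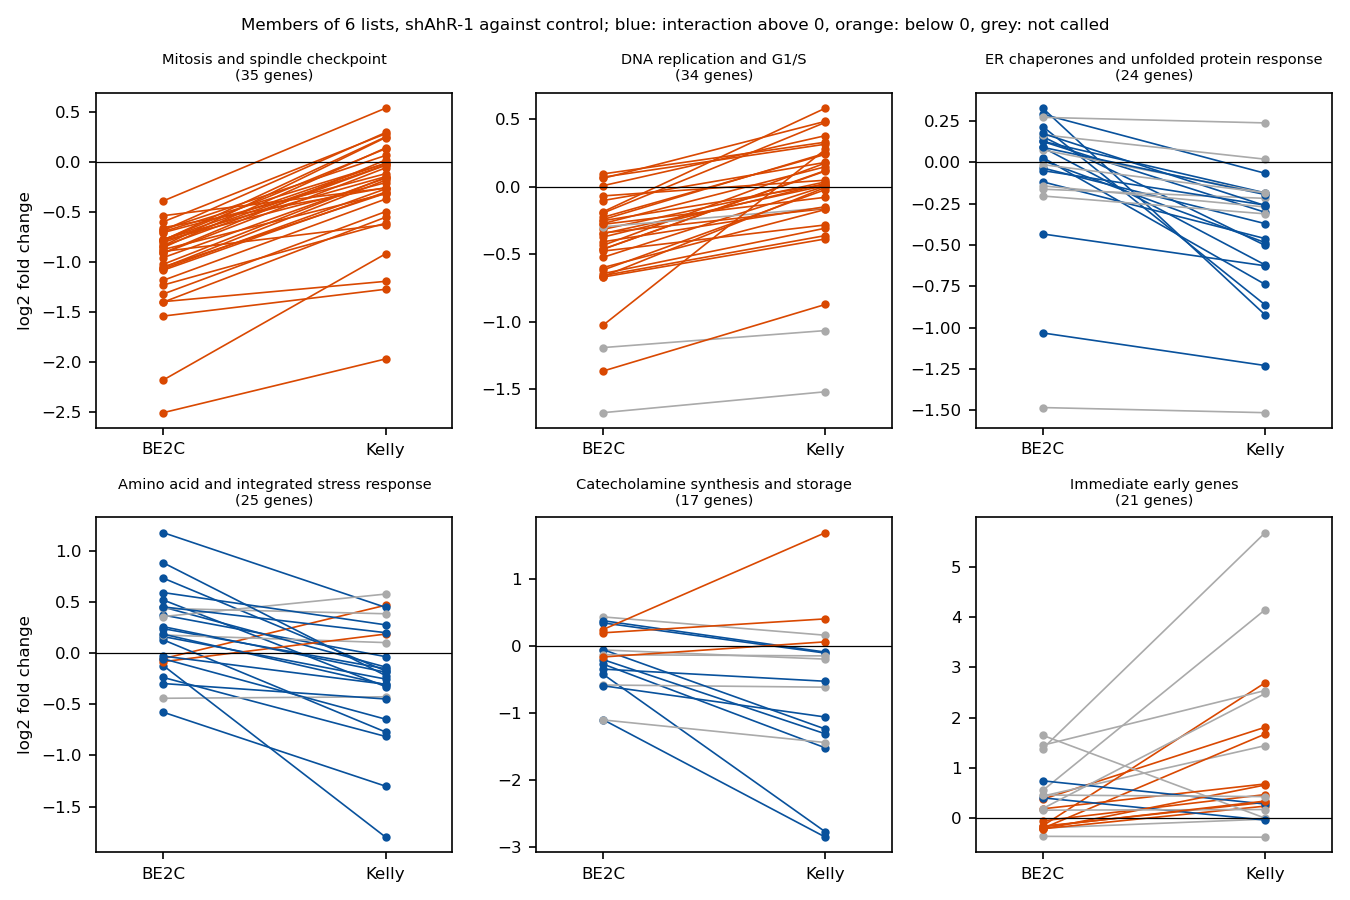
Log2 fold change with shAhR-1 against control for every tested member of 6 lists, with BE2C on the left and Kelly on the right of each panel and a line joining each gene. Blue lines have an interaction called above 0, orange lines one below 0 and grey lines none, so that mitosis lines all run upward and most chaperone lines downward.

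Genes of the receptor's own complex differed between the lines by less than 1 on the log2 scale, in either direction. ARNT, its dimer partner, fell from 72.2, 67.4 and 65.9 to 51.2, 52.5 and 53.3 CPM in BE2C and from 103, 97.1 and 104 to 66.9, 72.4 and 69.4 CPM in Kelly. Its interaction of 0.16 ± 0.062 (adjusted p = 0.0422) lost its call in DESeq2 (adjusted p = 0.0529), with the replicate block (0.0647) and without BE2C control replicate 2 or 3, Kelly control replicate 1 or 3, or Kelly shAhR-1 replicate 1 or 3. HSP90AB1 fell in both and more in Kelly (−0.17 ± 0.024 and −0.37 ± 0.024). The clock factor gene ARNTL rose in Kelly (0.81 ± 0.17) and was not called in BE2C (−0.07 ± 0.14), and SRC rose in BE2C (0.24 ± 0.052) and was not called in Kelly (−0.06 ± 0.048). Of 11 members of the complex, 4 rose and 5 fell in BE2C, 5 rose and 4 fell in Kelly, and 3 interactions were above 0 and 5 below.

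Of 13 AhR target genes, 8 passed the filter on low counts and 4 were at 0 in all 12 libraries. In BE2C 1 rose and 1 fell, in Kelly 2 rose and 3 fell, and 2 interactions were above 0. NQO1, a quinone reductase gene, was at 9.46, 11.02 and 9.94 CPM in Kelly controls and 3.11, 4.22 and 4.09 in the libraries labelled shAhR-1, against 11.6, 10.6 and 11.9 and 11.5, 11.9 and 10.8 CPM in BE2C, where the groups overlapped (interaction 1.41 ± 0.16, adjusted p = 2.66e-10). The amino acid transporter gene SLC7A5 was the other (−0.29 ± 0.033 in Kelly, 0.05 ± 0.033 in BE2C, the latter called with a filter at a mean of 1 CPM, at 0.10 and adjusted p = 0.00434). CYP1B1 rose in Kelly (1.55 ± 0.16) and was below 1 CPM in BE2C, where its rise was called without BE2C control replicate 3 (adjusted p = 0.0277) or BE2C shAhR-1 replicate 2 (adjusted p = 0.0454), with an interaction of −0.77 ± 0.43 that was not called (adjusted p = 0.168). TIPARP fell in both (−0.32 ± 0.10 and −0.39 ± 0.088), with a difference interval of −0.21 to 0.33, and its BE2C call was lost without BE2C control replicate 2 or BE2C shAhR-1 replicate 3. CYP1A1 (0.695, 0.486 and 0.504 against 0.603, 0.535 and 0.645 CPM in BE2C, 0.481, 0.190 and 0.255 against 0, 0.466 and 0.335 CPM in Kelly) and AHRR (interaction −0.96 ± 0.79) were near the limit of detection and called nowhere.

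Metabolic lists fell in both lines, though many members did so by unequal amounts. Of 29 tested hypoxia and glycolysis genes, 23 fell in each line, 22 of them in both (medians −0.40 and −0.44), and of 23 cholesterol synthesis genes 16 fell in BE2C and 19 in Kelly, 15 in both (medians −0.29 and −0.36). Among 33 MYC target genes 24 fell in BE2C and 23 in Kelly, 19 in both (medians −0.23 and −0.22). The interaction was above 0 for 12 hypoxia and glycolysis genes and below 0 for 6. It was above 0 for 6 cholesterol synthesis genes and below 0 for 2, and above 0 for 7 MYC target genes and below 0 for 8. Against a 1.5-fold threshold 1 hypoxia and glycolysis interaction, below 0, remained, and 0 in each of the other lists. NDRG1 (−1.17 ± 0.21 and −1.39 ± 0.19), PDK1 (−0.47 ± 0.066 and −0.53 ± 0.058) and the sterol enzyme gene EBP (−0.87 ± 0.088 and −0.998 ± 0.093) had no interaction call. Unequal members included LDHA, the lactate dehydrogenase A gene, at 295 ± 4.92 and 168 ± 1.10 CPM in Kelly against 18.9 ± 1.73 and 17.1 ± 1.02 in BE2C (interaction 0.66 ± 0.066), and PFKL of glycolysis (0.58 ± 0.088). The BE2C falls of LDHA and PFKL lost their calls with the filter at a mean of 1 CPM (adjusted p = 0.149 and 0.225), and also without several single BE2C libraries.

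In the p53 target list, 13 of 23 rose and 6 fell in Kelly, and 8 rose and 9 fell in BE2C, with 12 interactions below 0 and 2 above. Against a 1.5-fold threshold 3 remained below 0 and 0 above. ZMAT3 rose from 107, 123 and 115 to 329, 321 and 346 CPM in Kelly and from 35.4, 43.5 and 35.3 to 53.1, 57.3 and 55.8 CPM in BE2C. The death receptor gene TNFRSF10B rose in Kelly (1.003 ± 0.043) and was not called in BE2C (0.06 ± 0.11), and the cyclin gene CCNG1 fell in both (−1.48 ± 0.045 and −2.04 ± 0.047). Of 23 collagen and matrix genes 9 interactions were above 0 and 4 below, and among 25 TGF-beta response genes 5 and 8. CNN1, the calponin gene of smooth muscle, was opposed (1.95 ± 0.29 in BE2C and −0.72 ± 0.23 in Kelly, the latter lost without Kelly control replicate 1 or Kelly shAhR-1 replicate 1). COL4A1 rose in Kelly (0.68 ± 0.074) and was not called in BE2C (0.10 ± 0.092), and ID1 likewise (0.84 ± 0.073 against 0.05 ± 0.053).

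Among neuronal differentiation genes 6 of 29 interactions were above 0 and 9 below, and among synaptic vesicle genes 6 of 23 above and 6 below. STMN4 rose in both lines (1.04 ± 0.19 in BE2C and 2.06 ± 0.098 in Kelly), peripherin, PRPH, fell in both (−0.73 ± 0.047 and −1.66 ± 0.051), and the adhesion gene NRCAM rose in Kelly (0.90 ± 0.037 against 0.05 ± 0.029). The BE2C value of NRCAM was called in DESeq2 (adjusted p = 0.031) and with a filter at a mean of 1 CPM (0.11, adjusted p = 0.00129). In the retinoic acid list 4 of 17 were above 0 and 4 below, among them the receptors RARA (0.74 ± 0.078, with 11.8% of exonic bases in another gene) and RXRA (−0.58 ± 0.065). The mesenchymal list had 5 above 0 and 6 below of 20. SNAI2, a factor of epithelial to mesenchymal transition, was at 0.306, 0.379 and 0.408 CPM in Kelly controls and 1.81, 2.80 and 2.92 in the libraries labelled shAhR-1, against 10.7, 9.83 and 9.30 and 7.30, 9.05 and 6.99 CPM in BE2C. Its BE2C fall lost its call with the filter at a mean of 1 CPM (adjusted p = 0.0571) and without BE2C control replicate 1 or BE2C shAhR-1 replicate 1 or 3, and the interaction was −3.15 ± 0.28.

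The remaining lists are given by their counts. Interferon response genes had 1 interaction above 0 and 4 below of 19, nuclear respiratory chain genes 10 and 1 of 34, and small RNA processing genes 1 and 7 of 20. The last include DICER1, which processes hairpins (−0.21 ± 0.033 in BE2C and 0.15 ± 0.033 in Kelly, interaction adjusted p = 1.75e-08). Of 20 tested replication-dependent histone genes 8 rose in BE2C and 12 in Kelly, mostly at low counts, with 5 interactions above 0 and 3 below.

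Leukocyte markers and the defining glial markers were low, while several fibroblast and endothelial markers were not, and some lists moved with the groups. In the glial list SOX10 and ERBB3 stayed below 1 CPM in every library and CDH19 was at 0, and the list's summed level was 42.1 to 42.4 CPM in Kelly controls and 20.5 to 23.9 in the libraries labelled shAhR-1, against 22.4 to 26.4 and 26.0 to 28.5 in BE2C. PMP22, which tumour cells can express, carried most of it (−0.82 ± 0.074 in Kelly). The fibroblast list fell in sum in Kelly from 561.5 to 606 CPM in controls to 441 to 472, with FAP at 0 in every library and COL1A2 and POSTN below 1 CPM, and ran from 291.5 to 306 and 309.7 to 319.5 CPM in BE2C. COL6A2 (−1.19 ± 0.057 in Kelly and 0.20 ± 0.068 in BE2C) and COL1A1 are its members. In the leukocyte list 11 of 12 markers stayed below 1 CPM in every library, and in the endothelial list 8 of 10, with ENG and VWF above. The summed endothelial level was 7.37 to 7.99 CPM in Kelly controls and 2.202 to 2.887 in the libraries labelled shAhR-1, against 67.5 to 71.1 and 65.2 to 67.0 in BE2C. Of the tested members, 2 of 8 glial, 4 of 11 fibroblast, 0 of 3 leukocyte and 2 of 5 endothelial genes had an interaction above 0, and 3 fibroblast genes had one below 0. Their part in the results was not tested.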

How the data were processed

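Total RNA (miRNeasy, then RNA HyperPrep with RiboErase, per the labels' protocols) was sequenced from 3 libraries per group. The deposited values are whole-number read counts per gene and library, which the authors made from reads aligned to GRCh38.p7 with STAR 2.7.9a after CASAVA 1.8.2, per the submitters' processing notes. For the counting tool, annotation and strand setting the sources used here give nothing. Of counts between 1 and 20, 69.0% to 72.5% were even, so a fit on halved counts was among the alternatives.

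The 2 count tables were joined by symbol (39368 genes). edgeR 4.0.16 (R 4.3.3) filtered low counts with filterByExpr, scaled by TMM and fitted 4 groups over 12 libraries by quasi-likelihood, with Benjamini-Hochberg adjustment over 16239 genes. SEs are the fold change divided by the square root of F. The common biological coefficient of variation was 4.17%. The code was tested on simulated data. Positions come from GENCODE release 29.

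The comparison, the gene lists and the rule for named genes were chosen with earlier results of these data known. The rule took AHR and 8 fixed genes. It added genes measurable in both lines, of at least 5 CPM in some group, in each response class: the largest smaller fold change for opposite and like-size genes, and the largest interaction for the others. It also took up to 2 members of each list with the highest and 2 with the lowest called interaction. Other list members were named after their values were seen. A few genes that the rule took are not reported here. Alternatives were RLE scaling, DESeq2 1.42.0, a mean of 1 CPM or no filter, a 1.5-fold threshold (glmTreat), halved counts, each line alone, a replicate block, leaving out each library, and leaving out mitochondrial genes. Recounting the gene lists under these settings was chosen after seeing the data.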

Additional observations from a re-analysis of the deposited data

Results flagged for a closer look

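The effect of shAhR-1 differed between the lines, by edgeR's test of the interaction itself, for 6057 genes, of which 822 moved in opposite directions. Every gene described with an interaction call meets the same criterion. Among the leading opposite genes the interaction was 4.01 for CARTPT, 2.07 for KCNH3, 2.90 for NLGN3, 2.22 for MEGF6, 1.82 for MELTF and 1.66 for ABHD14B on the log2 scale, the BE2C response being the more positive. It was −3.11 for VIP, −2.73 for SCN1A, −2.05 for ADAMTS9, −3.10 for INHBA, −2.85 for ADCYAP1 and −1.65 for PLXNA4, the Kelly response being the more positive. Groups of 3 libraries are too small for the test of single outlying samples.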

How the results depend on the processing

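The counts of called genes stayed within 1.5 times the main count under every alternative except a 1.5-fold threshold, under which the interaction was called for 667 genes (346 above 0 and 321 below), BE2C for 1203, Kelly for 1815, same sign for 538, opposite for 10, BE2C only for 126 and Kelly only for 256. DESeq2 called the interaction for 6051 genes, and 732 of the 822 opposite genes were also opposite there, against 663 with a filter at a mean of 1 CPM. Leaving out 1 library at a time gave 5645 to 5886 interaction calls, 7800 to 8383 in BE2C, 8566 to 9363 in Kelly, 4963 to 5067 of the same sign, 708 to 762 opposite, 1056 to 1195 in BE2C only and 1369 to 1581 in Kelly only. The opposite genes split 420 to 288, 430 to 300 and 409 to 312 without BE2C shAhR-1 replicates 1, 2 and 3. The AHR ratio ran from 0 to 0.875 in BE2C and from 0.681 to 1.36 in Kelly. The Kelly value of MT-ATP6 ranged from −0.057 (adjusted p = 0.0171, without Kelly control replicate 2, a reversal) to 0.041 without Kelly control replicate 1. Library numbers did not pair the samples (correlations of same-numbered deviations from −0.0175 to 0.0197), and with the number as a replicate block the interaction was called for 5834 genes, BE2C for 8176, Kelly for 9029, same sign for 5097, opposite for 767, BE2C only for 1133 and Kelly only for 1496. Over the named genes and these settings, 2921 interaction values kept their side of the threshold and their direction and 124 lost the call. For BE2C 2990 kept them, 167 lost and 35 gained a call, and for Kelly 3107 kept them, 83 lost and 4 gained a call and 1 reversed. At this depth a count of 0 allows up to 3 counts, which limits AHR.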
